A study of Saccharomyces cerevisiae with 95 samples.

Results

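The mating-type specific genes of *Saccharomyces cerevisiae* examined here were 10 of the 6132 open reading frames (ORFs) on the arrays. They were taken by name. The 6 a-specific genes were *MFA1* (YDR461W), *MFA2* (YNL145W), *STE2* (YFL026W), *STE6* (YKL209C), *BAR1* (YIL015W) and *AGA2* (YGL032C), and the 4 alpha-specific genes were *MF(ALPHA)1* (YPL187W), *MF(ALPHA)2* (YGL089C), *STE3* (YKL178C) and *SAG1* (YJR004C). The genes were chosen by name with measured values in view, namely the low log-phase glycerol over glucose ratios of the alpha-specific genes on the arrays labelled *adh1*. The values of those arrays are given below as a description without a test.

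Haploid budding yeast exists as a cells or alpha cells. An a cell secretes a-factor and carries the receptor for alpha-factor, whereas an alpha cell secretes alpha-factor and carries the receptor for a-factor. Binding of the partner's pheromone starts a kinase cascade that arrests the cell cycle and turns on genes for mating. In a cells the a-specific genes are transcribed and the alpha-specific genes are not, since transcription of the alpha-specific genes needs the alpha1 protein encoded at the alpha mating-type locus.

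Expression was measured on 95 two-colour arrays, each giving a log2 ratio between 2 cultures, so that a value of 1 is a 2-fold difference. On 83 arrays RNA of a chemostat was set against RNA of a batch culture grown to late log phase in a medium that the labels give as limited in the same nutrient. The histidine-limited chemostats (2 mg/l histidine, 43 arrays in 5 courses) received 6 mM DTT, 5 h of growth at 37 °C in place of 30 °C, 0.31 M NaCl, 10 µM clotrimazole (an azole inhibitor of ergosterol synthesis, dissolved in DMSO) or histidine to 4 mg/l. The glucose-limited chemostats (0.02% glucose, 40 arrays in 5 courses) received 6 mM DTT, 5 h at 39 °C, 0.4 M NaCl, 0.6 mM H2O2 or glucose to 0.04%. The labels give wild-type haploid BY4741 for all chemostats. The methods give BY4741 (*MAT*a, with mutant *his3*, *leu2*, *met15* and *ura3*) for glucose limitation only, and for histidine limitation W303-1 *bar1*::P-ADH1-CFP-*KANMX* (*MAT*a, with mutant *leu2*, *trp1*, *his3*, *ura3* and *ade2*), in which a reporter under the *ADH1* promoter stands in place of *BAR1*. Strain, limiting nutrient and batch reference therefore change together and cannot be told apart. The remaining 12 arrays compared glycerol with glucose in log phase in haploid BY4741 *adh1*::*KANMX* (3 arrays) and haploid wild-type BY4741 (2 arrays), or followed *adh1* cells after transfer of an overnight YPD culture to glycerol (4 arrays) or to fresh glucose (3 arrays). Both channels of every array carried the same strain, according to the labels.

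All 83 chemostat arrays held a value for each of the 6132 ORFs, the 5 log-phase arrays for 5071 to 5672 and the 7 transfer arrays for 5919 to 6013. Array medians lay between -0.03 and 0.03. Among the 10 genes the missing values were those of *MF(ALPHA)1* on both wild-type log-phase arrays, and 15 values were listed as exactly 0, of which 5 were *STE2* values on transfer arrays. Intensities were not analysed here, so the level of a gene within a culture is not known, and a fall in the share of cells that express a gene cannot be told apart from less RNA per cell. *MFA1* and *MFA2*, the 2 genes for alpha-factor and the copies at the mating-type locus and silent cassettes are closely similar in sequence, and their signals may not be fully separate on ORF arrays.

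*BAR1* encodes the secreted protease with which a cells degrade alpha-factor, and it is the gene that the methods give as disrupted in the histidine-limited cultures. Over the 43 histidine-limited arrays its log2 ratio over batch had a lowest value of -0.21, a median of 0.08 and a highest value of 0.98. Over the 40 glucose-limited arrays the lowest value was -1.25, the median 0.08 and the highest 1.97. The medians were thus alike while the range was far narrower under histidine limitation. The SD over arrays was 0.25 in histidine limitation and 0.80 in glucose limitation, which placed *BAR1* at percentile 30.0 and percentile 94.8 of all ORFs by SD. With each course left out in turn the SD ran from 0.23 to 0.27 in histidine limitation and from 0.62 to 0.86 in glucose limitation. Since both channels came from one strain, these ratios do not show whether *BAR1* RNA was present. No other a-specific gene had so small an SD in the histidine-limited arrays, where *MFA1*, *MFA2*, *STE2*, *STE6* and *AGA2* stood between 0.47 and 0.85. The alpha-specific *SAG1* (0.21) and *MF(ALPHA)1* (0.25) had SDs as small there, while *MF(ALPHA)2* (0.44) and *STE3* (0.54) did not. The median SD of all ORFs was 0.31 in histidine limitation and 0.38 in glucose limitation.

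The first comparison asked how the genes stood at steady state in each chemostat against late-log batch culture, before any perturbation. Under histidine limitation 5 of the 6 a-specific genes were lower than in batch, *BAR1* being the exception, and 1 of the 4 alpha-specific genes, *STE3*, was higher. Under glucose limitation none of the 6 a-specific genes passed the test. The unit was the course, with repeat arrays before the onset averaged, which gave 4 histidine-limited and 5 glucose-limited values. The histidine-limited DTT course had no array before its onset. All p-values below are Benjamini-Hochberg adjusted over all ORFs in a moderated test in limma, and an ORF was called at an adjusted p below 0.05. In histidine-limited steady state against batch 16.5% of all ORFs were called lower and 18.2% higher. In glucose-limited steady state these shares were 14.8% and 13.9%. The study speaks of 2 chemostat cultures, 1 per limiting nutrient, and whether the courses of a limitation were run on separate cultures is not stated in the sources used here, so the p-values measure the spread between these samples, which may not be independent, and a ratio over batch leaves out the spread of the batch culture itself.

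Of the pheromone genes, *MFA1*, which encodes an a-factor precursor, stood at -3.40 before clotrimazole, -2.59 before NaCl, -2.39 before heat shock and -1.38 before added histidine in the histidine-limited courses. In the glucose-limited courses it stood at -0.90 before H2O2, -0.62 before DTT, -0.51 before NaCl, 0.22 before heat shock and 0.97 before added glucose. All 4 histidine-limited values lay below all 5 glucose-limited values. The mean was -2.44 ± 0.83 (SD, n = 4) in histidine limitation (limma adjusted p = 0.000111) and -0.17 ± 0.76 (SD, n = 5) in glucose limitation (limma adjusted p = 0.684). *MFA2*, the other a-factor gene, gave -2.74, -2.14, -1.99 and -1.88 in histidine-limited cells before clotrimazole, heat shock, NaCl and histidine, against -0.64, -0.37, -0.29, -0.04 and 0.52 in glucose-limited cells before H2O2, DTT, NaCl, heat shock and glucose. Its groups did not overlap either, and its mean was -2.18 ± 0.39 (SD, n = 4) in histidine limitation (limma adjusted p = 3.95e-06) and -0.16 ± 0.44 (SD, n = 5) in glucose limitation (limma adjusted p = 0.453).

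The alpha-factor genes stayed near 0 in both chemostats. *MF(ALPHA)1*, which encodes most of the alpha-factor precursor in alpha cells, ranged from -0.02 to 0.11 in histidine limitation and from -0.41 to 0.10 in glucose limitation, and did not pass in either. *MF(ALPHA)2*, the minor alpha-factor gene, averaged 0.19 ± 0.25 in histidine limitation (SD, n = 4, limma adjusted p = 0.132). In glucose limitation its 5 values lay between 0.25 and 0.40, with a mean of 0.30 ± 0.06 (SD, n = 5) that was called higher (limma adjusted p = 0.0149).

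The receptors moved in opposite directions under histidine limitation. *STE2*, the alpha-factor receptor of a cells, gave -1.39 before heat shock, -1.30 before clotrimazole, -0.95 before histidine and -0.71 before NaCl in histidine-limited cells, against -0.26 before H2O2, -0.19 before DTT, 0.26 before glucose, 0.35 before NaCl and 1.00 before heat shock in glucose-limited cells. The groups did not overlap, and the means were -1.08 ± 0.31 (SD, n = 4) in histidine limitation (limma adjusted p = 0.000682) and 0.23 ± 0.51 (SD, n = 5) in glucose limitation (limma adjusted p = 0.295). *STE3*, the a-factor receptor of alpha cells, gave 1.76 before histidine, 1.45 before clotrimazole, 1.10 before NaCl and 0.85 before heat shock in histidine-limited cells, and -0.04 to 0.27 in glucose-limited cells. Every histidine-limited value of *STE3* was thus above every glucose-limited one. Its mean was 1.29 ± 0.40 (SD, n = 4) in histidine limitation (limma adjusted p = 1.90e-05) and 0.09 ± 0.15 (SD, n = 5) in glucose limitation (limma adjusted p = 0.592).

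Among the genes for export and adhesion, *AGA2*, the binding subunit of the a-agglutinin, had the smallest SD of the 5 lowered genes in histidine limitation. It gave -2.46, -2.04, -2.03 and -1.83 in histidine-limited cells before clotrimazole, heat shock, NaCl and histidine, against values from -0.25 to 0.44 in the 5 glucose-limited courses. The means were -2.09 ± 0.26 (SD, n = 4) in histidine limitation (limma adjusted p = 4.91e-07) and -0.04 ± 0.28 (SD, n = 5) in glucose limitation, which was not called. *STE6*, the transporter that exports a-factor, split within histidine limitation, at -1.25 before clotrimazole and -1.09 before heat shock but -0.39 before histidine and -0.07 before NaCl. Its glucose-limited values ran from -0.22 to 0.22, so the groups overlapped, while the histidine-limited mean of -0.70 ± 0.56 (SD, n = 4) was called lower (limma adjusted p = 0.00590). *SAG1*, the alpha-agglutinin that binds *AGA2* protein, averaged -0.05 ± 0.15 in histidine limitation (SD, n = 4, limma adjusted p = 0.646) and -0.25 ± 0.10 in glucose limitation (SD, n = 5), where all 5 values were below 0 and it was called lower (limma adjusted p = 0.0182), a call lost without the DTT course (adjusted p = 0.0610) or the H2O2 course (adjusted p = 0.0681). *BAR1* gave 0.06 ± 0.24 in histidine limitation (SD, n = 4, limma adjusted p = 0.828) and 0.00 ± 0.53 in glucose limitation (SD, n = 5, limma adjusted p = 0.990).

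**Figure D1:**
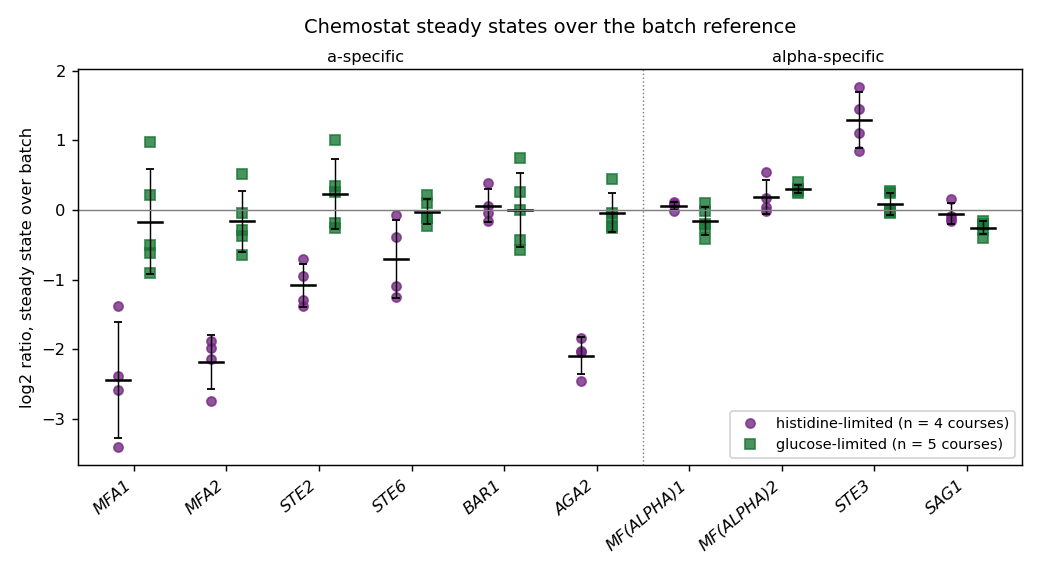
The y axis gives the log2 ratio of chemostat steady state over batch for each of the 10 genes along the x axis, with 1 point per course, histidine-limited courses as circles (n = 4) and glucose-limited courses as squares (n = 5), the mean as a black line and the SD as the error bar. *MFA1*, *MFA2*, *STE2* and *AGA2* lie lower and *STE3* higher in histidine limitation without overlap. *BAR1* and *MF(ALPHA)1* lie on both sides of 0 in both, and in glucose limitation all 5 values of *MF(ALPHA)2* lie above 0 and all 5 of *SAG1* below it.

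The difference between the limitations was tested in the same fit. Steady state in histidine limitation minus steady state in glucose limitation was -2.27 ± 0.42 (SE, limma adjusted p = 0.00173) for *MFA1* and -2.02 ± 0.23 (SE, limma adjusted p = 9.36e-05) for *MFA2*. It was -1.32 ± 0.24 (SE, limma adjusted p = 0.00166) for *STE2* and -2.05 ± 0.16 (SE, limma adjusted p = 7.53e-06) for *AGA2*. *STE3* differed by 1.20 ± 0.17 in the other direction (SE, limma adjusted p = 0.000358). *STE6* differed by -0.67 ± 0.22 (SE, limma adjusted p = 0.0327), a call that was lost in 5 of the 9 fits with 1 course left out, namely without glucose-limited DTT, heat shock or H2O2 and without histidine-limited heat shock or clotrimazole (adjusted p up to 0.0997). *BAR1* differed by 0.06 ± 0.24 (SE, limma adjusted p = 0.870). Over all ORFs 16.3% were called lower and 18.7% higher, and 13.4% had all histidine-limited courses below all glucose-limited ones and 15.9% above, against 4 below and 1 above among the 10 genes.

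Other genes of the mating pathway, from lists drawn up with earlier results of these data known, did not move together. *AFB1*, an alpha-specific gene that encodes a blocker of a-factor, averaged -1.31 ± 0.25 (SD, n = 4) in histidine-limited and -0.08 ± 0.13 (SD, n = 5) in glucose-limited steady state, and differed by -1.22 (limma adjusted p = 5.51e-05), so that 2 alpha-specific genes, *AFB1* and *STE3*, moved in opposite directions. *SST2*, which turns off the pheromone signal, differed by -1.28 (limma adjusted p = 0.000136). The largest increases among list genes were those of *PRM4*, a pheromone-regulated gene, at 1.89 (limma adjusted p = 2.47e-06) and *TRP1*, which is mutant in the W303-1 strain, at 1.17 (limma adjusted p = 0.000116). Of the 17 pheromone signalling genes 4 were called higher and 2 lower in histidine limitation than in glucose limitation. Of the 17 pheromone-induced targets 1 was called higher and 4 lower, and of the 10 pheromone-processing genes 1 was called higher and 2 lower. Over all ORFs 18.7% were called higher and 16.3% lower, and these small counts are not read as a result about the lists. The median difference of the 3 lists was 0.26, -0.09 and -0.13, against 0.01 over all ORFs. Chosen after their values were seen, *ASG7*, a further a-specific gene, differed by -0.87 (limma adjusted p = 0.00913), *AGA1*, the anchor of *AGA2* protein, by -0.95 (limma adjusted p = 0.00359), and *FUS1*, a cell fusion gene, by -0.80 (limma adjusted p = 0.000525). None of the 5 measured probes of the mating-type locus and silent cassettes was called in any chemostat comparison.

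Through the histidine-limited courses the sign against batch held on single arrays, although the values of the limitations overlapped over all arrays. *MFA1*, *MFA2*, *STE2* and *AGA2* were below batch on 43 of 43 arrays and *STE3* was above batch on 43 of 43, while *STE6* was below on 38. In glucose limitation the same counts were 12, 21, 18 and 12 of 40 below for *MFA1*, *MFA2*, *STE2* and *AGA2*, 26 of 40 above for *STE3* and 19 of 40 below for *STE6*. Each course was sampled over time, so the values after its onset have no replicates and are given without a test. All are ratios over batch, so a low or high ratio at steady state can carry over to later arrays of the course. The arrays behind these counts are thus not independent. The share of all ORFs that kept their sign on all 43 arrays is not given here, so how unusual the counts are cannot be judged.

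In the DTT course under histidine limitation *MFA1*, *MFA2* and *STE2* first lay below the range of the steady-state means of the other courses. They lay above it at 19.32 h. *AGA2*, at -2.02, lay within its range at first. *BAR1*, at 0.48, first lay above its highest course mean of 0.39 (clotrimazole), but the 2 arrays behind that mean differed by 0.32. *MFA2* gave -3.60 at 0.25 h, -4.43 at 1 h, -4.00 at 3.1 h, -3.34 at 6.55 h, -2.43 at 10.72 h, -0.62 at 19.32 h and -1.38 at 28.62 h. The value at 1 h was the lowest of any of the 10 genes on any chemostat array. *MFA1* was lowest at 0.25 h, at -3.64, and highest at 19.32 h, at -0.80. *STE2* ranged from -2.49 at 3.1 h to -0.34 at 19.32 h and *AGA2* from -3.17 at 3.1 h to -0.83 at 19.32 h. *STE3* ran the other way, from 1.77 at 1 h to 0.24 at 28.62 h. Among all ORFs 5.69% lay over 2-fold below steady state on the first array of this course, and 4 of the 10 genes did so, namely *MFA1*, *MFA2*, *STE2* and *MF(ALPHA)2*. In the glucose-limited DTT course, at the same dose, no member lay over 2-fold from steady state on the first array, where 1.09% of ORFs were that much lower and 1.11% that much higher, and *MFA2* ranged from -1.16 at 2.22 h to 0.97 at 14.25 h.

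After clotrimazole the a-specific genes other than *BAR1* lay nearest to batch on the last arrays. Before the drug *MFA1* stood at -3.46 and -3.34 on 2 arrays. Afterwards it gave -3.42, -3.60, -3.52, -2.79, -2.99 and -3.02 at 0.25, 1.2, 2.87, 5.03, 9.78 and 14.18 h, then -0.76 at 26.45 h and -0.47 at 30.8 h. The last 2 arrays thus lay over 2 log2 units above the 6 before them. *STE2* was at -2.29 at 9.78 h, against -1.26 and -1.33 before the drug, and *MFA2* at -3.49 at 14.18 h, against -2.82 and -2.67. On the last 2 arrays *MFA2* gave -0.88 and -0.62, *STE2* -0.37 and -0.39, *AGA2* -1.23 and -1.21 and *STE6* -0.52 and -0.44, all higher than at 14.18 h. *STE3* gave 2.20 at 9.78 h and 0.38 and 0.06 on the last 2 arrays. *BAR1* lay between 0.00 and 0.66 throughout.

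In the remaining histidine-limited courses single genes stood out on single arrays. After NaCl *MFA2* was at -3.63 at 0.23 h, against -1.95 and -2.02 before, and at -2.07 by 1.82 h. It was the 1 member over 2-fold below steady state on that first array, as were 9.23% of ORFs. On the first array of the heat shock *MF(ALPHA)2* was the 1 such member, at -0.70 against 0.43 and 0.65 before, as were 3.07% of ORFs. During and after the shift to 37 °C *MFA1* stayed between -2.57 and -1.68 and *STE2* between -1.67 and -1.16. *BAR1* had its highest histidine-limited value, 0.98, at 2.47 h of this shift, and 0.59 at 4.88 h, against 0.00 at 5.38 h, after the return to 30 °C. *MF(ALPHA)1* had its highest value there too, 1.14 at 4.88 h, against 0.04 and -0.07 before. After added histidine *MFA2* stayed between -1.96 and -1.56, and no member lay over 2-fold from steady state on the first array, where 0.245% of ORFs were that much lower and 0.0815% higher. The clotrimazole course gave no such member on its first array either, where 0.995% of ORFs were that much lower and 0.538% higher.

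**Figure D2:**
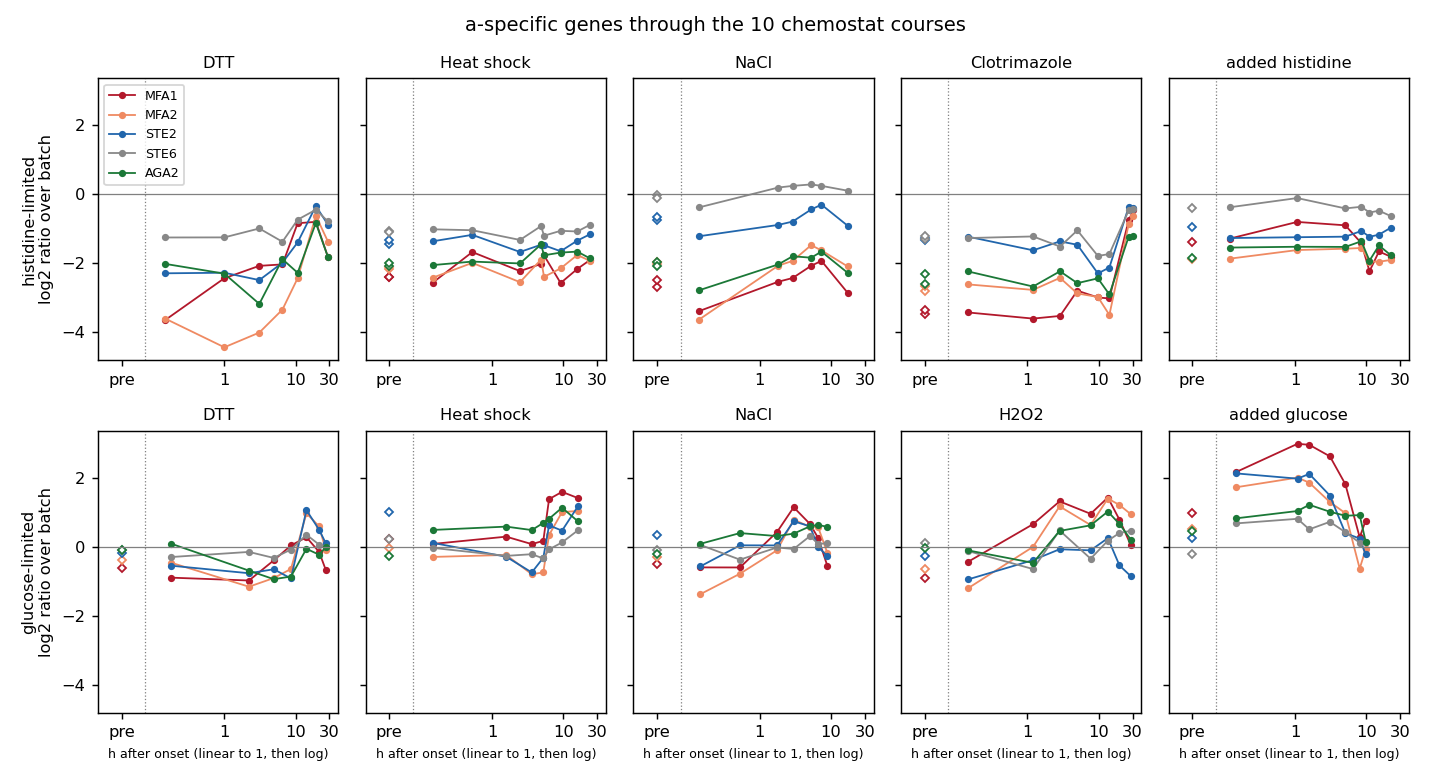
The log2 ratio over batch of *MFA1*, *MFA2*, *STE2*, *STE6* and *AGA2* (y axis) is drawn against hours after the onset (x axis, linear to 1 h and logarithmic beyond), with histidine-limited courses in the upper row and glucose-limited courses in the lower row, open diamonds for arrays before the onset and 1 point per array. The histidine-limited curves stay below 0 apart from that of *STE6*. *MFA1*, *MFA2* and *AGA2* come closest to 0 at 19.32 h of DTT or at 30.8 h of clotrimazole and *STE2* at 7.37 h of NaCl (-0.30), and the highest values of the panel are those of *MFA1* after added glucose.

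The highest a-specific values of the glucose-limited courses followed the addition of glucose. *MFA1* stood at 0.97 before added glucose and gave 2.16 at 0.25 h, 2.98 at 1.08 h, 2.95 at 1.58 h, 2.61 at 3.08 h, 1.81 at 5.08 h, 0.27 at 8.08 h and 0.76 at 9.8 h. *STE2* gave 0.26 before and 2.12 at 0.25 h, and *BAR1* 0.01 before and 1.97 at 0.25 h. On that first array 8.74% of ORFs lay over 2-fold above steady state, as did *MFA1*, *MFA2*, *STE2* and *BAR1*, and *BAR1* ranked 65 and *STE2* 76 from the highest of the 6132 ORFs. *STE6* was 0.90 and *AGA2* 0.38 above steady state, and the alpha-specific genes lay between -0.26 and 0.32. By 8.08 h *BAR1* stood at -0.91.

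The other glucose-limited courses gave a mixed picture. After H2O2 *MFA1* stood above its steady state of -0.90 on all 7 arrays, up to 1.42 at 13.5 h, and *MFA2* reached 1.39 at the same time, while *STE2* was between -0.95 and 0.25. *STE3* gave 2.09 at 0.25 h and 2.09 at 1.2 h, against -0.04 before H2O2, and was back at -0.30 by 2.83 h. It was the 1 member over 2-fold above steady state on the first array, as were 4.19% of ORFs, and no other glucose-limited array had *STE3* above 0.49. *MFA1* stayed between 0.08 and 0.29 from 0.25 h to 5.25 h, the array at 5.25 h falling after the 5 h shift to 39 °C. It then gave 1.38, 1.59 and 1.41 at 6.33, 9.63 and 16.05 h. *STE2* and *BAR1* stood at 1.00 and 0.75 before this shift and at -0.74 and -0.55 at 3.62 h. After NaCl *MFA2* gave -1.37 at 0.25 h and 0.78 at 3 h, against -0.29 before, and at 0.25 h it was the 1 member over 2-fold below steady state, as were 13.6% of ORFs.

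**Figure D3:**
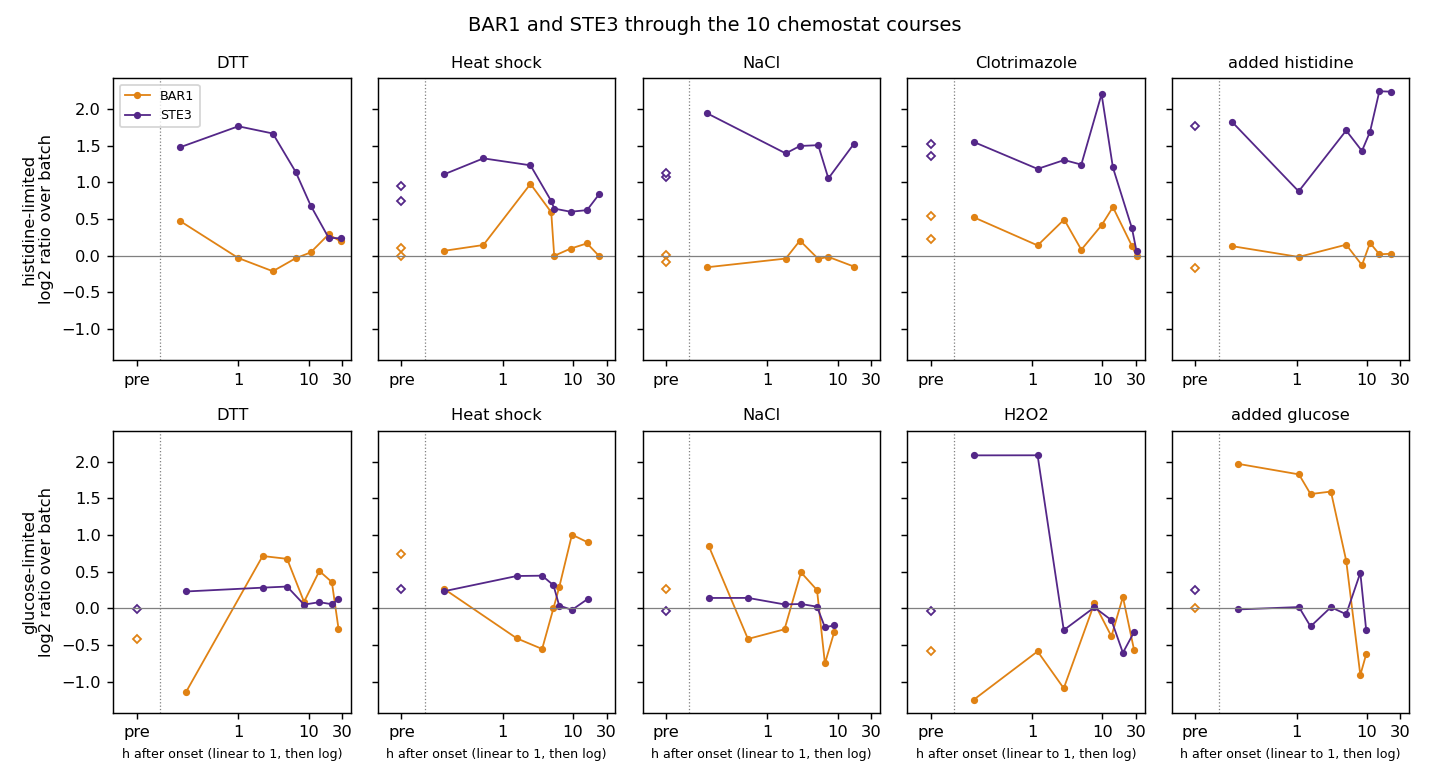
The log2 ratio over batch of *BAR1* and *STE3* (y axis) is drawn against hours after the onset (x axis, linear to 1 h and logarithmic beyond) in the 5 histidine-limited courses (upper row) and the 5 glucose-limited courses (lower row), with open diamonds before the onset. *STE3* lies above 0 in every histidine-limited panel and in glucose limitation reaches 2.09 after H2O2, whereas *BAR1* moves up to 1.97 in glucose limitation and stays within -0.21 and 0.98 in histidine limitation.

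The early stress response was tested over 7 courses as the first array after the onset, at 0.23 to 0.33 h, minus the steady state of the course. The histidine-limited DTT course has no such array and was set against the mean of the other histidine-limited courses, which it thus shares with them. *MFA2* was below steady state in 7 of 7 courses, from -1.65 after NaCl in histidine limitation to -0.10 after DTT in glucose limitation, with a mean of -0.76 ± 0.62 (SD, n = 7, limma adjusted p = 0.0380). *MF(ALPHA)2* was below in 7 of 7, from -1.24 to -0.19, with a mean of -0.72 ± 0.35 (SD, n = 7, limma adjusted p = 0.0235). *STE2* was below in 6 of 7, from -1.21 to 0.02, with a mean of -0.65 ± 0.41 (SD, n = 7, limma adjusted p = 0.0269). *STE3* was above in 6 of 7 with a mean of 0.54 ± 0.75 (SD, n = 7, limma adjusted p = 0.150), of which the H2O2 course gave 2.12. *MFA1*, *STE6*, *BAR1*, *AGA2*, *MF(ALPHA)1* and *SAG1* had means between -0.32 and 0.07 and did not pass. Over all ORFs 8.37% were called lower and 6.47% higher, against 3 and 0 of the 10 genes.

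These calls rest on the set of courses and on the measure used. With the mean of the arrays up to 3 h in place of the first array all 3 were lost (*MFA2* -0.38, adjusted p = 0.298, *STE2* -0.51, adjusted p = 0.0661, *MF(ALPHA)2* -0.51, adjusted p = 0.0763), as they were with the ratio over batch in place of the change from steady state (adjusted p = 0.0535, 0.0580 and 0.0824 in the same order of genes). Without the glucose-limited heat shock, or without any 1 of the histidine-limited DTT, heat shock or NaCl courses, limma called 0 ORFs of any kind (1590 to 1720 at an unadjusted p below 0.05), and *MFA2*, *STE2* and *MF(ALPHA)2* were among the calls lost. The calls of *MFA2* and *STE2* were also lost without the glucose-limited NaCl course, where 508 ORFs were called. Of the list genes in the same test *PRM8* (1.06) and *PRM9* (0.86), 2 pheromone-regulated genes, were called higher and *HO* (-1.0), the mating-type switching endonuclease gene that is mutant in laboratory strains, and *STE4* (-0.76), the G protein beta subunit of the pheromone pathway, were called lower.

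Whether the early response differed between limitations was tested on the 3 stresses given to both, at unequal NaCl doses and temperatures. For 0 of 6132 ORFs did the paired difference pass in limma (0.0%, with 526 at an unadjusted p below 0.05). The difference, histidine-limited minus glucose-limited, was -0.93, -0.04 and -0.71 for *MFA1*, -1.32, -0.02 and -0.57 for *MFA2*, -0.11, -0.75 and -1.06 for *AGA2* and -0.20, -0.16 and -0.14 for *SAG1* after DTT, heat shock and NaCl. These 4 genes had 3 of 3 differences below 0, and none was called, with means of -0.56 ± 0.46 for *MFA1* (SD, n = 3, limma adjusted p = 0.617), -0.64 ± 0.65 for *MFA2* (SD, n = 3, limma adjusted p = 0.614), -0.64 ± 0.49 for *AGA2* (SD, n = 3, limma adjusted p = 0.591) and -0.16 ± 0.03 for *SAG1* (SD, n = 3, limma adjusted p = 0.846). *BAR1* gave 1.13, 0.50 and -0.70, and *STE2* -0.84, 0.91 and 0.41, each with both signs. The share of all ORFs with 3 of 3 differences below 0 is not given here, so nothing is read from the 4 genes that had it.

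Across the arrays after the onset, expressed as the change from steady state, the a-specific genes other than *BAR1* went together in histidine limitation. Their 10 pairs had Pearson correlations of 0.59 to 0.90 (median 0.70) over 36 arrays, whereas *BAR1* correlated with them at -0.36 to 0.07. Among all ORFs ranked by correlation with *MFA1*, *MFA2* stood at 67, *STE6* at 98, *AGA2* at 120 and *STE2* at 136. *MFA2* had rank 1 for both *STE2* and *AGA2*. Changes in the histidine-limited DTT course were taken from the mean of the other histidine-limited courses. In glucose limitation the 10 pairs gave 0.03 to 0.88 (median 0.39) over 35 arrays, and *BAR1* correlated with the others at -0.24 to 0.74. The alpha-specific genes did not go together, with median correlations of -0.10 in histidine limitation and -0.08 in glucose limitation. The positive correlations in histidine limitation were not confined to the a-specific genes. There the alpha-specific *MF(ALPHA)2* correlated with *MFA2* at 0.66, *STE2* at 0.48, *AGA2* at 0.46, *STE6* at 0.42 and *MFA1* at 0.24. *STE3* correlated with the 5 a-specific genes other than *BAR1* at -0.69 to -0.50 in histidine limitation and at -0.52 to -0.16 in glucose limitation. Arrays of one course share a culture and a steady state, so these values describe the courses and carry no p.

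The ORFs most like each gene in this sense also differed between the chemostats. For *STE2* in histidine limitation they were *MFA2* (r = 0.90), *RAS1* (0.85) and *TEC1* (0.85), and in glucose limitation *GCD11* (0.86), *SSH1* (0.80) and *MDM20* (0.79). Without the 2 arrays farthest from the median *MFA2* gave 0.87 and *GCD11* 0.81. With 1 course left out the lowest values were 0.80 for *MFA2* (without DTT) and 0.76 for *GCD11* (without added glucose). *RAS1* encodes a G protein of nutrient signalling and *TEC1* a transcription factor that acts with *STE12*, while *GCD11* encodes a subunit of translation initiation factor eIF2. For *MFA1* they were YLR278C (0.86, and 0.68 without the 2 farthest arrays), *AGA1* (0.80) and YBR012WA (0.80) in histidine limitation and *MFA2* (0.88), *CLU1* (0.79) and YLR012C (0.72) in glucose limitation. For *BAR1* the nearest were *DTD1* (0.67, and 0.48 without the 2 farthest arrays), *TCD1* (0.63) and *SAY1* (0.58) in histidine limitation and *RAX1* (0.75), *STE2* (0.74) and *MET6* (0.73) in glucose limitation. For *SAG1* they were *ASP3-1* (0.70), *NIT3* (0.65) and *TIM13* (0.64) in histidine limitation and *RIM20* (0.58), *SFI1* (0.56) and *SNZ2* (0.55) in glucose limitation.

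The log-phase arrays compared glycerol with glucose as carbon source. On the 3 arrays labelled *adh1* the alpha-specific genes were among the ORFs lowest in glycerol, although the parent BY4741 is given as *MAT*a in the methods. *SAG1* gave -5.26, -5.44 and -4.93 on the arrays labelled *adh1*, the lowest mean of 4991 ORFs with a value on all 3, against -0.26 and -0.23 in wild type. *MF(ALPHA)2* gave -5.27, -4.62 and -4.67 on the arrays labelled *adh1* and -0.19 and -0.32 in wild type. *MF(ALPHA)1* gave -4.56, -4.38 and -3.92 on the arrays labelled *adh1* and has no wild-type value. *STE3* gave -3.56, -3.46 and -3.45 on the arrays labelled *adh1* and 0.23 and 0.34 in wild type. These probes thus gave more signal with the glucose-grown than with the glycerol-grown RNA on all 3 arrays labelled *adh1*. The labels of these arrays could not be checked by the deleted gene, because the *ADH1* probe gave 5.60, 5.43 and 5.32 and that of its close paralogue *ADH2* gave 5.86, 5.65 and 5.27, and both channels carry the deletion.

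The a-specific genes were also mostly lower in glycerol, in both strains. *STE2* gave -2.63, -2.34 and -1.62 on the arrays labelled *adh1* and -2.58 and -2.56 in wild type, so that the strains overlapped. *MFA2* gave -2.29, -2.47 and -1.98 on the arrays labelled *adh1* and -1.65 and -1.67 in wild type, without overlap. *MFA1* gave -1.81, -1.38 and -0.50 on the arrays labelled *adh1* and -0.54 and -1.10 in wild type, and overlapped. *BAR1* gave -0.93, -0.82 and -0.76 on the arrays labelled *adh1* and -1.72 and -1.47 in wild type, and *STE6* gave -0.38, -0.37 and -0.05 on the arrays labelled *adh1* and -0.69 and -0.89 in wild type, both lower in wild type without overlap. *AGA2* set the strains apart, with -2.44, -2.11 and -1.72 on the arrays labelled *adh1* and 0.49 and 0.13 in wild type. Of all ORFs 4.31% lay over 2-fold lower in glycerol on all 3 arrays labelled *adh1*, and 7 of the 10 genes did, including all 4 alpha-specific ones. Nothing is read from this count or from which genes overlapped, since the list was chosen with these values in view. The share of all ORFs without overlap between the strains is not given here either.

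**Figure D4:**
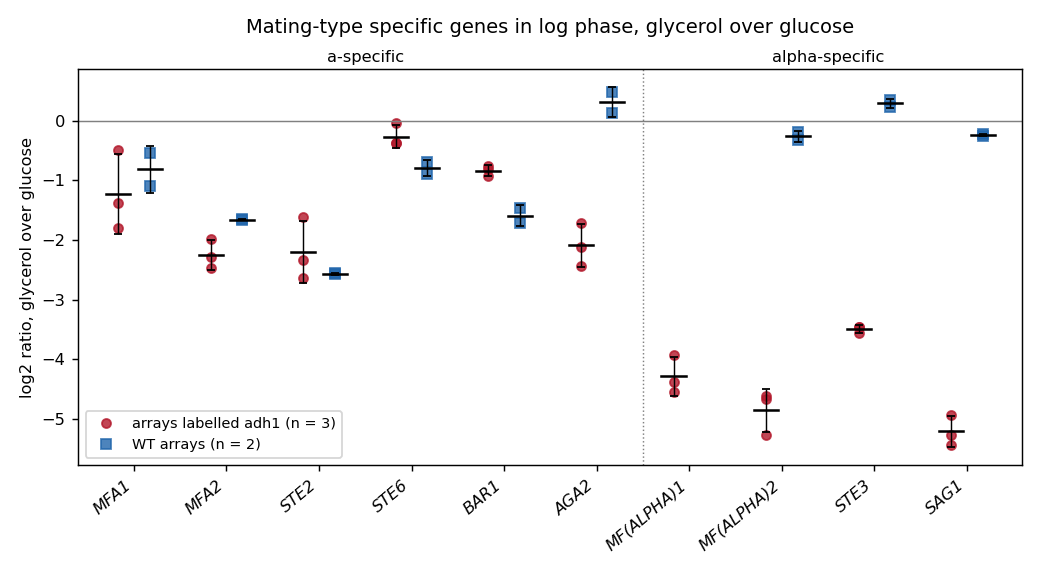
The y axis gives the log2 ratio of glycerol over glucose in log phase for each of the 10 genes along the x axis, with circles for the arrays labelled *adh1* (n = 3) and squares for wild type (n = 2), the mean as a black line and the SD as the error bar. *MF(ALPHA)2*, *STE3*, *SAG1*, *MFA2*, *STE6*, *BAR1* and *AGA2* do not overlap between the strains, *MFA1* and *STE2* do, and *MF(ALPHA)1* has no wild-type value. The share of all ORFs without such overlap is not given, so nothing is read from it.

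In wild type the glycerol effect could be tested, on 4827 ORFs with a value on all 5 log-phase arrays. The log2 ratio of glycerol over glucose was -2.57 ± 0.22 for *STE2* (SE, n = 2, limma adjusted p = 0.000114), -1.66 ± 0.13 for *MFA2* (SE, n = 2, limma adjusted p = 8.35e-05) and -1.59 ± 0.10 for *BAR1* (SE, n = 2, limma adjusted p = 4.59e-05). *STE6* (-0.79, limma adjusted p = 0.00121) and *MFA1* (-0.82, limma adjusted p = 0.0433) were also called lower, and *STE3* higher (0.29, limma adjusted p = 0.0283). *AGA2* (0.31), *MF(ALPHA)2* (-0.26) and *SAG1* (-0.24) did not pass. The calls of *MFA1* and *STE3* were lost when either wild-type array or the second *adh1* array, which enters through the shared spread, was left out (adjusted p up to 0.297 and 0.152). *STE3* was lost too with the replicate number as a block (limma adjusted p = 0.0614) and with the wild-type arrays alone (limma adjusted p = 0.0994). Since 33.0% of ORFs were called lower and 27.7% higher in this comparison, a call by itself set the 10 genes little apart.

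Other genes of the pathway are described for the same arrays, without a test of the strains against each other. On the arrays labelled *adh1*, 9 of 17 pheromone-induced targets, 4 of 17 pheromone signalling genes, 1 of 9 measured pheromone-processing genes and 2 of 5 measured mating-type and silent-cassette probes were over 2-fold lower in glycerol on all 3 arrays, against 4.31% of ORFs, and 1 signalling gene was over 2-fold higher on all 3. Nothing is read from these counts, since the lists were drawn up with earlier results of these data known. Chosen after their values were seen, *AGA1* gave -4.77, -4.41 and -3.94 on the arrays labelled *adh1* and -0.04 and -0.30 in wild type, and *FUS3*, the kinase of the mating cascade, gave -2.83, -2.16 and -2.74 on the arrays labelled *adh1* and -0.12 and 0.38 in wild type. *MATALPHA1*, whose probe can also detect the silent alpha cassette, gave -1.68, -1.52 and -1.64 on the arrays labelled *adh1* and 0.05 and 0.24 in wild type. Among the list genes called in wild type the largest were *MSG5*, a phosphatase of the mating cascade (1.64, limma adjusted p = 2.81e-05), *PRM8* (1.10, limma adjusted p = 0.00167), *HO* (-1.01, limma adjusted p = 0.000636) and *HIS3* (-0.96, limma adjusted p = 0.000991).

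After transfer of cells labelled *adh1* from an overnight glucose culture, the alpha-specific genes lay between -0.87 and 0.84 at 0.5 h in glycerol and between -3.49 and -2.24 at 4 h. At 0.5, 1, 2 and 4 h in glycerol *MF(ALPHA)2* gave -0.18, -1.21, -2.40 and -3.49 and *STE3* gave -0.87, -1.13, -2.0 and -3.11. *SAG1* gave 0.84, 0.63, -0.24 and -2.24. *MF(ALPHA)1* gave -0.86, -2.11, -0.44 and -3.49, with the 2 h array out of order. In fresh glucose at 0.5, 2 and 4 h *SAG1* gave 0.73, 1.14 and 0.98, *MF(ALPHA)2* 0.71, 0.95 and 0.84, *MF(ALPHA)1* 0.74, 0.78 and 0.77 and *STE3* -0.19, -0.14 and 0.12. At 2 and 4 h every alpha-specific gene was thus lower in glycerol than in fresh glucose, and at 0.5 h all but *SAG1* were, which gave 0.84 in glycerol and 0.73 in fresh glucose. Each time point is 1 array, so these values carry no error. The genes were chosen with low glycerol over glucose ratios of cells labelled *adh1* in view, so this order is not independent of that choice.

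The a-specific genes lay closer together in the media at 4 h. *MFA1* gave -0.33 in glycerol and 0.40 in fresh glucose, and *MFA2* gave -0.05 in glycerol and 0.72 in fresh glucose. *STE6* gave -1.19 in glycerol and -0.99 in fresh glucose, *BAR1* gave -0.71 in glycerol and -0.18 in fresh glucose, and *AGA2* gave -0.55 in glycerol and -1.02 in fresh glucose. *STE2* was listed at 0 on 5 of the 7 transfer arrays, and its values there are not read as a level. Over 2-fold below the overnight culture in glycerol were 1 of the 10 genes at 0.5 h (*AGA2*, 9.74% of ORFs), 3 at 1 h (6.34% of ORFs) and 4 at 2 h (7.44% of ORFs). At 4 h 4.18% of ORFs lay over 2-fold below the overnight culture in glycerol, and 5 of the 10 genes did, the 4 alpha-specific genes and *STE6*. In fresh glucose 1 gene was that much lower at each time, *STE6* at 0.5 h (6.23% of ORFs) and *AGA2* at 2 h (5.21%) and 4 h (3.56%), and *SAG1* was over 2-fold higher at 2 h (8.89%). Nothing is read from these counts. The genes were chosen with low glycerol over glucose ratios of cells labelled *adh1* in view, so the counts are not independent of that choice.

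**Figure D5:**
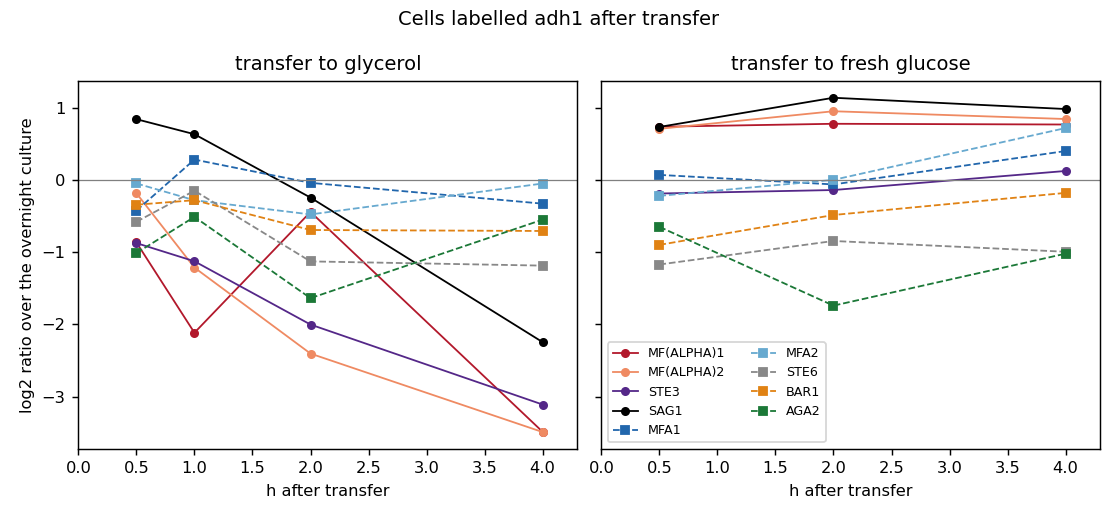
The log2 ratio over the overnight culture (y axis) of 9 genes in cells labelled *adh1* is drawn against hours after transfer (x axis) to glycerol (left) and to fresh glucose (right), with circles and solid lines for alpha-specific genes and squares and dashed lines for a-specific genes, 1 array per time point and *STE2* left out. The 4 alpha-specific genes end between -3.49 and -2.24 at 4 h in glycerol, against 0.12 to 0.98 in fresh glucose.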

How the data were processed

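Per the labels and the methods, total RNA was converted to cDNA, labelled with Cy5 (chemostat, glycerol or transferred culture) and Cy3 (batch, glucose or overnight culture) without dye swaps, and hybridised to arrays of ORFs. The authors deposited log2 ratios of Cy5 over Cy3, corrected for technical biases and normalised by a procedure not detailed in the sources used here. These values were used as deposited. Each experiment was read with 1 of 2 scanners, and which experiment with which is not given, so that scanner and course cannot be told apart. Depth does not apply to arrays, and their number limits the precision.

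Tests used limma 3.58.1 in R 4.3.3 (lmFit and eBayes) over all ORFs with Benjamini-Hochberg adjustment and a threshold of 0.05, after a check on simulated data. The steady state of a course was the mean of its arrays before the onset, 12 arrays of 9 courses. Repeat arrays of 1 steady state differed by at most 0.32 for the 10 genes. The other list genes named were at most 2 increases and 2 decreases per comparison among those past the threshold, and the ORFs most like a gene were the 3 of highest correlation; others are marked. The members, lists and tests were chosen with earlier results of these data known. Groups follow the titles, since the source labels of the histidine-limited heat shock and clotrimazole arrays before the onset name another limitation or stress, and the histidine-limited NaCl labels give a concentration of the glucose medium. No sequences of these genes were analysed here.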

Additional observations from a re-analysis of the deposited data

Results flagged for a closer look

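*STE3* on the first array after H2O2, 2.12 above steady state, lay far above the other 6 stress courses, by a gap past the critical value of Dixon's test. That test was run on 30 groups of values, and chance gives such a gap in about 1 group of 20. On the same array and at 1.2 h *OSI1* gave 5.47 and 6.34, *AAD10* 3.23 and 4.51 and *GPX2* 4.97 and 3.97 over batch (chosen after their values were seen).

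For 6 genes the steady state over batch differed between histidine and glucose limitation by a limma test, by -2.27 for *MFA1*, -2.02 for *MFA2*, -1.32 for *STE2*, -0.67 for *STE6*, -2.05 for *AGA2* and 1.20 for *STE3*, with limitation, strain and batch reference changing together.

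For 2 genes every array labelled *adh1* and every wild-type array lay on opposite sides of 0 in log phase, with a mean on the arrays labelled *adh1* minus that in wild type of -2.40 for *AGA2* and -3.78 for *STE3*. These differences were not tested, and the share of all ORFs on opposite sides of 0 is not given here.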

How the results depend on the processing

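Of the 23 called results of the 10 genes over all comparisons, 16 kept their call under every alternative run, and in the histidine-limited steady state all 6 did. Depth does not apply to ratios, and intensities over background were not analysed. The number called on the first array after stress, 910 ORFs, became 135 with the ratio over batch in place of the change from steady state, 540 with the mean of the arrays up to 3 h, and 0 to 1228 with 1 course left out (0 without glucose-limited heat shock or histidine-limited DTT, heat shock or NaCl, 508 without glucose-limited NaCl). The difference between limitations in that response, 0 ORFs, became 97 with the ratio over batch, *MFA1* (-2.73), *MFA2* (-2.50) and *AGA2* (-2.50) among them, which holds the steady-state difference by construction. The cause of the other changes was not tested.

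The genes below were not called in the comparison named and took the other sign under some setting. With the ratio over batch, *AGA2* (-0.90) and *MF(ALPHA)1* (-0.012) did so on the first array after stress, and *STE2* (-1.29), *MF(ALPHA)1* (0.11) and *SAG1* (0.066) in the difference between limitations. With the mean up to 3 h, *MFA1* (0.16) and *SAG1* (0.067) did so after stress and *MF(ALPHA)1* (0.030) in the difference. With 1 course left out, glucose-limited steady state over batch ran from -0.45 to 0.016 for *MFA1*, -0.086 to 0.024 for *STE6*, -0.18 to 0.15 for *BAR1* and -0.16 to 0.018 for *AGA2*. *BAR1* ran from -0.049 to 0.13 in histidine-limited steady state and from -0.088 to 0.24 in the difference between the steady states. After stress *AGA2* ran from -0.044 to 0.20, *MF(ALPHA)1* from -0.013 to 0.11 and *SAG1* from -0.078 to 0.048, and the difference between limitations from -0.22 to 0.66 for *STE2*, -0.10 to 0.82 for *BAR1* and -0.24 to 0.20 for *MF(ALPHA)1*.

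With the replicate number as a block, 2777 ORFs were called for glycerol over glucose in wild type, against 2932 without it, and *STE3* lost its call. The numbers are not shown to pair the samples, as deviations of same-numbered arrays correlated at 0.03 over 2 shared numbers.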

Other observations

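The ORFs most like *STE3* and *MF(ALPHA)2* over the arrays after the onset, chosen after their values were seen, were of other kinds than mating genes. For *STE3* in glucose limitation they were *OSI1* (r = 0.95, and 0.73 without the 2 arrays farthest from the median), *AAD10* (0.93 and 0.59) and *GPX2* (0.93 and 0.57), and *GPX2* encodes a glutathione peroxidase. In histidine limitation they were *PEP8* (0.81), *YNG2* (0.76) and *SNU56* (0.75). For *MF(ALPHA)2* they were *IPI3* (0.92, and 0.90 without the 2 farthest arrays) in histidine limitation, a gene of ribosomal RNA processing, and *RPL43A* (0.86) in glucose limitation, which encodes a ribosomal protein. These are descriptions over 35 glucose-limited and 36 histidine-limited arrays that share cultures.

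In glucose-limited steady state over batch the list genes with the largest calls were *PRM5* (0.66, limma adjusted p = 0.000467), *PRM1* (0.61, limma adjusted p = 0.00587), *PRM4* (-1.66, limma adjusted p = 1.64e-07) and *STE23*, an a-factor processing protease gene (-1.23, limma adjusted p = 9.53e-06). In histidine-limited steady state over batch they were *TRP1* (1.18, limma adjusted p = 9.74e-06), *KSS1*, a kinase of the filamentous growth pathway (0.89, limma adjusted p = 4.40e-06), *AFB1* (-1.31, limma adjusted p = 3.01e-06) and *SST2* (-1.22, limma adjusted p = 1.67e-05).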
